A study of Mus musculus with 8 samples.

Results

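The genes described here are 35 interferon-stimulated genes, taken by name from the 24413 gene symbols of the count files, and all 35 are listed there. They were measured in plasmablasts, the dividing antibody-secreting cells that activated B cells give rise to. B220+ B cells from the spleen of C57BL/6J mice spent 4 days in 25 µg/ml lipopolysaccharide (LPS), a component of bacterial cell walls, and the CD22-CD138+ cells were then sorted. The 4 knockout libraries came from Jagn1fl/fl Mb1Cre+ mice, in which floxed alleles of Jagn1, a gene for a membrane protein of the endoplasmic reticulum, are exposed to Cre recombinase driven by Cd79a, a gene switched on early in the B lineage. The 4 control libraries came from Jagn1fl/fl mice with no Cre listed, so a Cre-only control was not analysed here. Both groups carried the floxed alleles and received the same LPS, so an LPS effect itself was not measured. The study design gives 4 mice per genotype.

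Interferon-stimulated genes are switched on when type I interferon binds its receptor and the kinases JAK1 and TYK2 activate STAT2, which joins a complex with IRF9 that binds a DNA element called ISRE in the promoters of the target genes. Some of these genes can also be switched on without interferon, by IRF3, IRF7 or NF-kB downstream of Toll-like receptors or RNA sensors, and in B cells LPS reaches these factors through TLR4. Their products sense foreign RNA, block viral replication, tag proteins with the ubiquitin-like protein ISG15, or feed back on the pathway.

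The promoters of 4 members are printed because these members rose or fell in the knockout and carry an exact match to the ISRE core, GAAA and GAAA with any 2 bases between them, on either strand. Each sequence holds the 250 bases before and 50 bases from the start site (RefSeq, GRCm38.p6, minus strand of the genome, read 5′ to 3′), with the ISRE matches in capitals. Rsad2 lies at chr12:26456403-26456702, Cxcl10 at chr5:92348840-92349139, Ddx58 at chr4:40239776-40240075 and Bst2 at chr8:71537423-71537722.
Rsad2: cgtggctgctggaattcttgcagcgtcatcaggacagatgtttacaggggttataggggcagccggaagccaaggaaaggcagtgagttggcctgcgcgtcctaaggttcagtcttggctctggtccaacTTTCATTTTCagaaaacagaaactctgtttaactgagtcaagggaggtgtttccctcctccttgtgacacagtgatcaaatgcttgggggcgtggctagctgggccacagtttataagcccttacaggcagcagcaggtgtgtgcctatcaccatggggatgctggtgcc
Cxcl10: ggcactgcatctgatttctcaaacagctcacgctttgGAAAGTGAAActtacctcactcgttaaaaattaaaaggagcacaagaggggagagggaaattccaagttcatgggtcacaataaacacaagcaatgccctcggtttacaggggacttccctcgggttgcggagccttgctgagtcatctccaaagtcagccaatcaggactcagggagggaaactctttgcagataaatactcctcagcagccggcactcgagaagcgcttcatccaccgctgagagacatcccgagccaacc
Ddx58: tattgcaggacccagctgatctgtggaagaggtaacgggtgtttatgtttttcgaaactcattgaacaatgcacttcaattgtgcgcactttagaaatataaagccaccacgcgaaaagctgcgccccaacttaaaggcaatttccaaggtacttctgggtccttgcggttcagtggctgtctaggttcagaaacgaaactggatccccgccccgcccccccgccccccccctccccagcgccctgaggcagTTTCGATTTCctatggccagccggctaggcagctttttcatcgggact
Bst2: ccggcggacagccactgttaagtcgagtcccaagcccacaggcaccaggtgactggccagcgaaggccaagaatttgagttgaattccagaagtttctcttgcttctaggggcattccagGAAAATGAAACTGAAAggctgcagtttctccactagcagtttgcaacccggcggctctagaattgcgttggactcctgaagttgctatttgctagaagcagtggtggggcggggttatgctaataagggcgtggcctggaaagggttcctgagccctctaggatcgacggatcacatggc
Rsad2 and Cxcl10 were higher in the knockout and Ddx58 and Bst2 were lower, so an ISRE match stood in promoters of members that moved in opposite directions. Counted from the start site, the match began at -120 in Rsad2, at -213 in Cxcl10 and at 2 in Ddx58, and Bst2 held 2 overlapping matches that began at -130 and -124. The Cxcl10 window also held 3 matches to the NF-kB consensus (kappaB element), of which 2 overlap, and the Bst2 window held 1, while those of Rsad2 and Ddx58 held no such letters. No promoter was matched for 10 members, among them Ifi27l2a and Ly6e, which were lower in the knockout, so their promoters were not examined. Promoters were matched by symbol for 25 of the 35 members. Of these 25 genes 12 (48.0%) had an ISRE match in at least 1 promoter, against 3.99% of all 27025 genes of the RefSeq table, and 8 (32.0%) had a kappaB match against 9.55%. By the test described below, ISRE matches were found for 2 of 3 higher, 2 of 4 lower and 4 of 11 tested but uncalled members with a promoter.

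Library totals ran from 5882912 to 10066661 counts (exact two-sided permutation p = 1 for knockout against control, n = 4 each), and 3 counts in a library were worth 0.292 to 0.483 CPM (counts per library scaled to a common normalized total). These floors and the intervals below cover counting error only. Jagn1 gave 1 or 2 counts in each knockout library and 16 to 99 in each control library. Control replicates 1 and 4 stood apart, with a root mean square deviation from the group mean of 0.594 and 0.581 (log2 CPM) against 0.324 to 0.432 in the other libraries. The 9 plasmablast markers were all detected, and their summed level was 27378 to 34486 CPM in control and 21215 to 27254 CPM in knockout libraries. Most of that sum came from Mzb1, which did not pass the test described below. Of the 9 markers 5 were lower in the knockout (Sdc1, Jchain, Tnfrsf17, Cd93 and Slamf7), 55.6% against 3.19% of all genes tested. The 10 B cell markers summed to 921 to 1189 CPM in control and 861 to 982 CPM in knockout libraries. Among them Cd79a, whose promoter drives the Cre, was 2.06-fold lower in the knockout (log2 fold change -1.04 ± 0.19, edgeR adjusted p = 0.00313), with no overlap between the groups. Cre was listed for the knockout only, so for Cd79a an effect of the Cre allele itself and one of Jagn1 loss cannot be told apart. The 12 macrophage and monocyte markers summed to 3.06 to 7.87 CPM in control and 1.48 to 5.89 CPM in knockout libraries, with Lyz2, Cd14, C1qb and C1qc at 0 in every library, and 6 of 7 neutrophil markers were at 0 in every library. The 9 dendritic cell markers summed to 65.6 to 108 CPM in control and 63.7 to 97.2 CPM in knockout libraries, nearly all of it from Xcr1, with Clec10a, Cd209a and Cd300c at 0. The 9 T cell markers summed to 30.4 to 42.4 CPM in control and 20.8 to 30.5 CPM in knockout libraries, and 8 NK cell markers to at most 4.77 CPM. The part of these marker differences in the results below was not tested, and in bulk samples fewer cells of a type and less RNA per cell cannot be told apart.

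The interferon-stimulated genes did not move as a block. Of the 35 members 25 passed the count filter, and of these 3 rose and 6 fell in the knockout at an adjusted p under 0.05 (edgeR's quasi-likelihood test), while 16 did not pass. The risers were the chemokine gene Cxcl10 and the antiviral genes Rsad2 and Isg20. Of these, Cxcl10 passed the count filter only through its knockout libraries. Those that fell were Ifi27l2a, Irf7, Bst2, Ddx58, Ly6e and Irf1. Called members made up 36.0% of those tested, against 5.74% of all 9904 genes tested, with 12% against 2.54% for higher and 24.0% against 3.19% for lower calls. The members were chosen with earlier results of these data known, so these shares are a description and no independent support. The median log2 fold change was -0.44 over the 25 tested members and -0.01 over all genes tested, and 18 of the 25 fitted values lay below 0. All 4 knockout libraries lay outside the range of the control libraries for 7 of the 25 members (28.0%), 2 above and 5 below, against 13.1% of all genes tested (6.45% above and 6.64% below). Without knockout replicate 2 the count was 1 member higher and 2 lower, and over all genes it fell from 252 to 137 higher and from 316 to 133 lower. Without knockout replicate 3 it was 2 members higher and 3 lower, and 165 genes higher and 179 lower. Without control replicates 1 and 4 it was 3 members higher and 9 lower, and 438 genes higher and 463 lower.

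**Figure D1:**
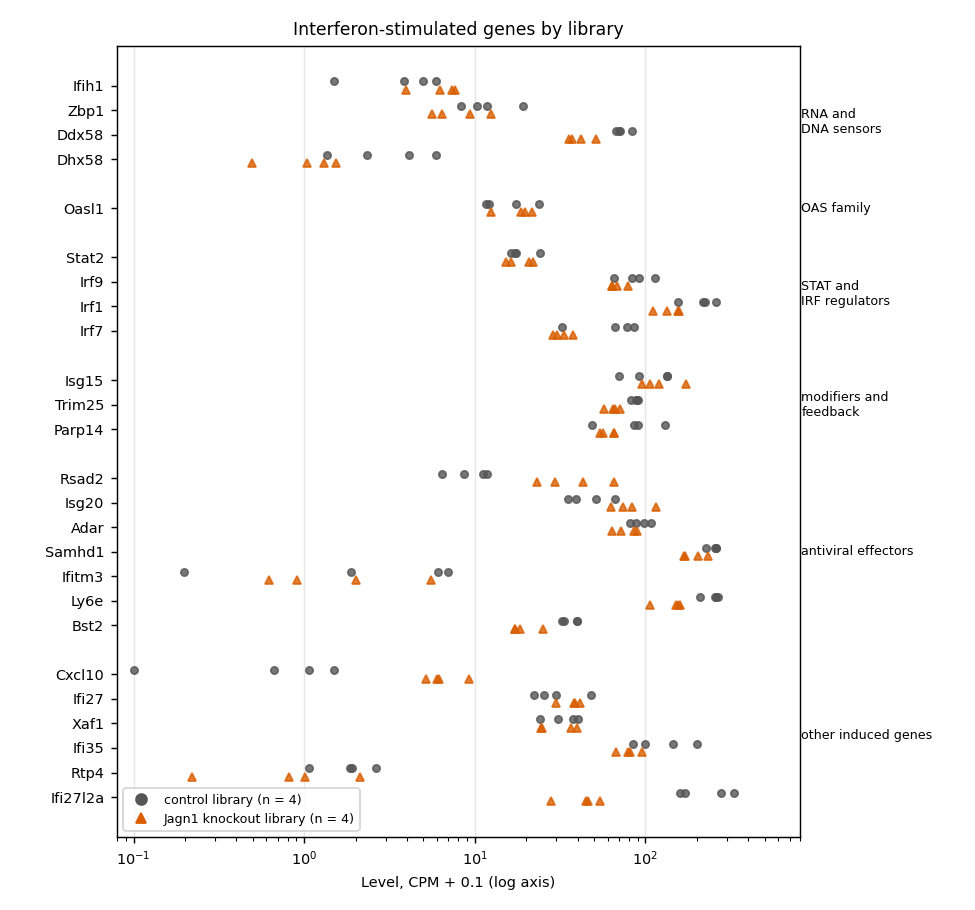
Level of each tested member in every library, in CPM plus 0.1 on a log axis, with circles for the 4 control and triangles for the 4 knockout libraries, grouped by role. The knockout triangles lie clear of the control circles to the right for Rsad2 and Cxcl10 and to the left for Ifi27l2a, Ly6e, Ddx58, Bst2 and Trim25.

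Among the regulators, the transcription factor genes Irf7 and Irf1 fell, while Irf9 and Stat2, 2 subunits of the ISRE-binding complex, did not pass. Irf7, the factor that amplifies type I interferon production, stood at 78.1, 66.5, 85.9 and 32.2 CPM in control replicates 1 to 4 and at 28.5, 33.1, 30.2 and 37.6 CPM in knockout replicates 1 to 4. Control replicate 4 lay among the knockout libraries and the other 3 control libraries lay above all of them. The log2 fold change of Irf7 was -1.02 ± 0.25 (SE), with an edgeR adjusted p of 0.0248, and -1.26 without control replicate 4. Leaving out control replicate 2 or 3, or any of knockout replicates 1 to 3, ended the call (adjusted p up to 0.104).

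Irf1, a factor induced by interferons and by NF-kB, stood at 155, 223, 219 and 260 CPM (control) against 158, 110, 134 and 155 CPM (knockout). Knockout replicates 1 and 4 lay above control replicate 1, the lowest control library, replicate 4 only just (155.4 against 154.5 CPM). Its log2 fold change of -0.62 ± 0.17 was at the threshold (edgeR adjusted p = 0.04999). The adjusted p was 0.00245 without control replicate 1, and the call was lost when any other single library was left out (up to 0.207). Irf9 was 88.2 ± 19.8 CPM (control) against 68.6 ± 7.06 CPM (knockout; SD, n = 4 each), with a log2 fold change of -0.36 ± 0.18 and an edgeR adjusted p of 0.294. Stat2 was 18.6 ± 3.57 and 18.5 ± 3.2 CPM, with a log2 fold change of -0.01 ± 0.22 and an edgeR adjusted p of 0.993. On the annotation used (GENCODE M21, GRCm38), exons of Irf1 share 135 bases with Gm17334 and those of Irf7 45 bases with Phrf1 on the opposite strand, and those of Irf9 123 bases with Rnf31 on the same strand. Whether strand was used in counting is not given here by any label or header. The values of other genes whose exons overlap a gene on the opposite strand are uncertain in the same way, namely Dhx58 (141 bases shared), Ifi35 (290), Usp18 (124), Oasl1 (38), Cish (479 and 261), Ptpn6 (195), Pml (105), Ms4a6b (19) and the plasmablast marker Slamf7 (423). Parp14 (110 bases) and Rtp4 (296) share exons with a gene on the same strand.

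Of the 4 sensor genes, Ddx58 fell and the other 3 did not pass. Ddx58 encodes RIG-I, which binds RNA ends that carry a triphosphate. It lies on chromosome 4 from 40203773 to 40239828 on the minus strand, with 18 merged exons. Its level was 67.0, 82.8, 70.5 and 70.0 CPM in control replicates 1 to 4 and 51.2, 35.5, 36.9 and 41.8 CPM in knockout replicates 1 to 4, and every knockout library was below every control library. Ddx58 was 1.75-fold lower (log2 fold change -0.81 ± 0.17, edgeR adjusted p = 0.00833), and the adjusted p was 0.0545 without knockout replicate 2.

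Ifih1, which encodes MDA5, the sensor of long double-stranded RNA, was far lower in level, at 1.40, 5.80, 3.76 and 4.87 CPM (control) against 7.25, 6.18, 7.61 and 3.85 CPM (knockout). Its log2 fold change of 0.65 ± 0.43 did not pass (edgeR adjusted p = 0.473). The log2 difference of Ddx58 minus Ifih1 within a library was 4.26 ± 0.74 in the control and 2.71 ± 0.48 in the knockout (SD, n = 4 each) and was lower in each of the 4 knockout libraries than in every control library. This pair was chosen after its values were seen, so the difference is a description and no p-value is given for it. Dhx58, which encodes LGP2, a regulator of RIG-I and MDA5, gave 16, 36, 29 and 13 counts (control) against 7, 10, 3 and 10 counts (knockout). The groups did not overlap in counts, but in CPM the lowest control library (1.27 CPM) lay below the highest knockout library (1.44 CPM). The log2 fold change of Dhx58 was -1.72 ± 0.64 (edgeR adjusted p = 0.149), and it passed in limma-voom with sample weights (0.0388), with control replicate 4 left out (0.0489) and with both control replicates 1 and 4 left out (0.0279). Zbp1, the sensor of left-handed Z-form nucleic acid, was at 12.3 ± 4.67 CPM (control) against 8.38 ± 3.12 CPM (knockout; SD, n = 4 each), with a log2 fold change of -0.55 ± 0.33 and an edgeR adjusted p of 0.424.

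The OAS enzymes make the messenger that activates RNase L when they bind double-stranded RNA, and of the 5 family members only Oasl1, a member without that enzyme activity, passed the count filter. It was at 17.4, 23.8, 11.6 and 12.1 CPM (control) against 19.6, 21.4, 18.6 and 12.3 CPM (knockout), and the groups overlapped in part. Its log2 fold change was 0.15 ± 0.27 (edgeR adjusted p = 0.836). Oas1a and Oas2 gave 0 counts in every control library and at most 1 and 2 counts in a knockout library. Oas3 gave at most 9 counts and Oasl2 at most 12 counts in any library.

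The antiviral effectors split, with Rsad2 and Isg20 higher and Bst2 and Ly6e lower in the knockout, and 3 of the 7 tested did not pass. Rsad2 encodes viperin, an enzyme that makes a chain-terminating nucleotide. The gene lies on chromosome 12 from 26442746 to 26456452 on the minus strand, with 8 merged exons. It stood at 8.57, 11.1, 11.7 and 6.33 CPM in control replicates 1 to 4 and 43.1, 65.4, 23.0 and 29.6 CPM in knockout replicates 1 to 4. Every knockout library was above every control library, and the knockout libraries also differed widely among themselves. Rsad2 was 4.29-fold higher (log2 fold change 2.101 ± 0.314, edgeR adjusted p = 0.000786), and the call of Rsad2 was kept in all 17 alternatives (adjusted p up to 0.0264). Cmpk2, its neighbour on the chromosome and a co-induced interferon target in other cells, was chosen after its value was seen and did not pass, with a log2 fold change of -0.19 ± 0.53 and an edgeR adjusted p of 0.905.

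Isg20, which encodes an RNA exonuclease, stood at 66.6, 34.97, 51.5 and 39.0 CPM (control) against 63.0, 83.0, 73.8 and 115 CPM (knockout). Control replicate 1 lay above knockout replicate 1, and the other 3 control libraries lay below all knockout libraries. The log2 fold change of 0.80 ± 0.23 was at the threshold (edgeR adjusted p = 0.04999). The adjusted p was 0.0032 without control replicate 1, and the call of Isg20 was lost when any other single library was left out (up to 0.188).

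Bst2 encodes tetherin, a membrane protein that holds budding virus at the cell surface. It was at 39.6, 33.2, 39.8 and 32.1 CPM (control) against 25.0, 18.4, 17.1 and 17.1 CPM (knockout), with no overlap. Bst2 was 1.87-fold lower (log2 fold change -0.90 ± 0.20, edgeR adjusted p = 0.0120), and the call was lost without knockout replicate 2 (0.0592) or 3 (0.0577). Ly6e, which encodes a lipid-anchored surface protein that restricts coronavirus entry, was among the most abundant members, at 267, 258, 254 and 209 CPM (control) against 106, 159, 155 and 150 CPM (knockout). The groups did not overlap, and the log2 fold change of Ly6e was -0.79 ± 0.16, a level 1.73-fold lower (edgeR adjusted p = 0.00632), a call kept in all 17 alternatives.

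Samhd1, which encodes the enzyme that degrades deoxynucleotides, was at 250 ± 15.4 CPM (control) against 193 ± 30.8 CPM (knockout), with a log2 fold change of -0.37 ± 0.14 and an edgeR adjusted p of 0.176, and it passed in limma-voom (0.0359). Adar, the RNA-editing adenosine deaminase, was at 93.5 ± 11.5 and 77.8 ± 12.2 CPM (all SD, n = 4 each), with a log2 fold change of -0.26 ± 0.16 and an edgeR adjusted p of 0.433, and its exons share 1365 bases with Chrnb2 on the opposite strand. Ifitm3, which blocks viral membrane fusion, ranged from 0.0974 to 6.88 CPM within the control and from 0.525 to 5.46 CPM within the knockout, too wide a spread for its log2 fold change of -0.75 ± 0.88 to be read.

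The ubiquitin-like and feedback genes gave no call among the 3 tested (edgeR; 2 were lower at an unadjusted p under 0.05, DESeq2 called 1 lower and limma-voom 2 lower). Isg15, whose product is attached to other proteins, stood at 91.9, 69.9, 134 and 133 CPM (control) against 106, 172, 121 and 95.8 CPM (knockout). Its groups overlapped in part, and its log2 fold change was 0.20 ± 0.22 (edgeR adjusted p = 0.705). Trim25, the ubiquitin ligase that acts on RIG-I, was at 88.5, 89.6, 81.9 and 90.0 CPM (control) against 66.1, 57.4, 64.3 and 71.1 CPM (knockout). Its groups did not overlap, but the log2 fold change of -0.44 ± 0.14 did not pass (edgeR adjusted p = 0.0967), and it passed with DESeq2 and limma-voom. Parp14, an ADP-ribosyltransferase, was at 88.6 ± 33.6 CPM (control) against 60.3 ± 5.73 CPM (knockout; SD, n = 4 each), with a log2 fold change of -0.55 ± 0.23 and an edgeR adjusted p of 0.210. Parp14 passed in limma-voom (0.0468), with control replicate 4 left out (0.00784) and with control replicates 1 and 4 left out (0.0284).

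The largest fall and the largest rise of the 25 tested members were both among the remaining induced genes. Ifi27l2a encodes a small interferon-induced membrane protein and lies on chromosome 12 from 103442167 to 103443680 on the minus strand, with 4 merged exons. It stood at 277, 171, 329 and 159 CPM in control replicates 1 to 4 and at 54.2, 45.9, 44.6 and 28.0 CPM in knockout replicates 1 to 4. The highest knockout library was far below the lowest control library. Ifi27l2a was 5.42-fold lower (log2 fold change -2.44 ± 0.25, edgeR adjusted p = 4.35e-05), and the call was kept in all 17 alternatives (log2 fold change -2.60 to -2.23).

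Ifi27 is a related gene that ends 1927 bases away and lies on the plus strand, and it did not pass the test. It was at 25.4, 29.6, 48.0 and 22.2 CPM (control) against 29.9, 41.4, 38.3 and 38.4 CPM (knockout), with overlapping groups and a log2 fold change of 0.24 ± 0.23 and an edgeR adjusted p of 0.653. The log2 difference of Ifi27l2a minus Ifi27 within a library was 2.89 ± 0.39 in the control and 0.19 ± 0.53 in the knockout (SD, n = 4 each), lower in 4 of 4 knockout libraries. This pair too was chosen after its values were seen, so its difference is a description without a p-value. The close relative Ifi27l2b gave at most 1 count in a library.

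Cxcl10, the chemokine gene for the ligand of CXCR3, lies on chromosome 5 from 92346638 to 92348889 on the minus strand. It gave 4, 6, 10 and 0 counts in control replicates 1 to 4 and 38, 64, 46 and 49 counts in knockout replicates 1 to 4. All knockout libraries lay above all control libraries, although the control values sit near the floor of 3 counts. The control libraries alone would not have passed the count filter. Cxcl10 thus entered the test through the group where it is high, and its call is a description and no independent support. The pooled rate of Cxcl10 was 9.99 times higher in the knockout (exact 95% interval 6.30 to 16.7, counting error only), and the fitted log2 fold change was 3.20 ± 0.67 (edgeR adjusted p = 0.00899). This fitted value was 2.45 without control replicates 1 and 4, and the adjusted p was 0.0581 without knockout replicate 2. Exons of Cxcl10 share 133 bases with Art3 on the opposite strand.

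Ifi35, whose product binds the related protein NMI, stood at 201, 99.3, 145 and 84.7 CPM (control) against 78.7, 81.7, 94.96 and 67.6 CPM (knockout). Control replicate 4 lay inside the knockout range. The log2 fold change of -0.71 ± 0.23 did not pass (edgeR adjusted p = 0.0894), and it passed under 4 of 17 alternatives, among them without control replicate 4. Xaf1, a gene that promotes cell death, was at 33.0 ± 7.32 and 31.2 ± 7.96 CPM (SD, n = 4 each, control and knockout; edgeR adjusted p = 0.907). Rtp4, a chaperone of receptors, gave 6 to 18 counts in a control library and 1 to 15 counts in a knockout library, with a log2 fold change of -0.91 ± 0.73 and an edgeR adjusted p of 0.573.

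**Figure D2:**
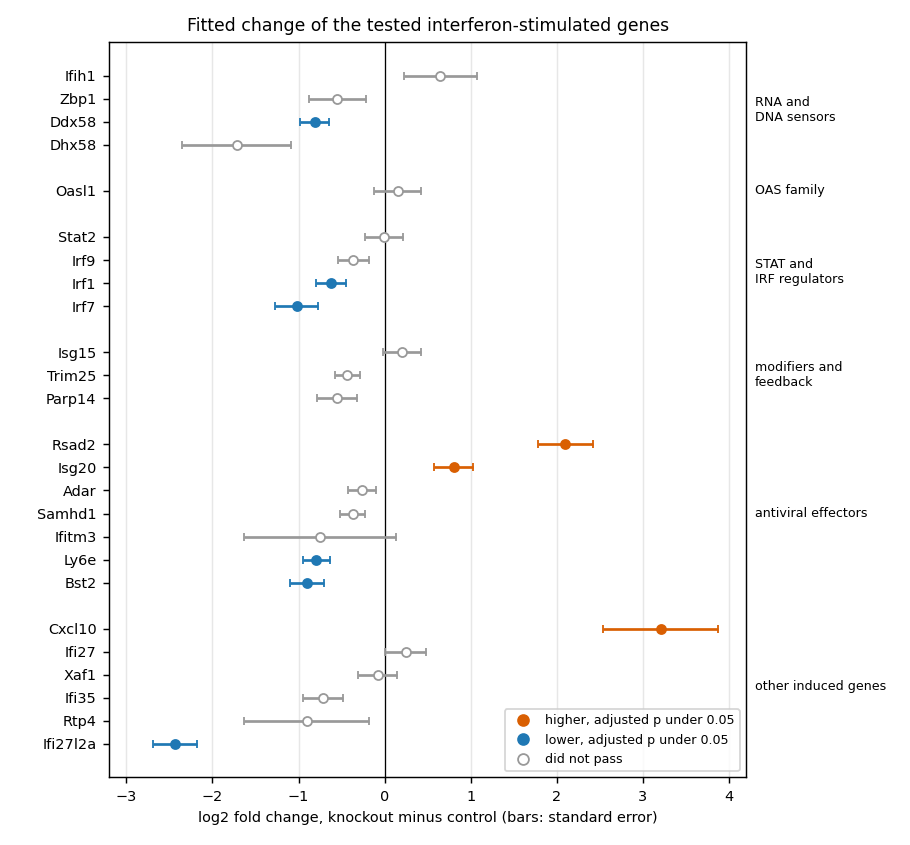
Fitted log2 fold change of knockout minus control for the 25 tested members, with bars for the standard error and filled points for an adjusted p under 0.05. The filled points range from -2.44 for Ifi27l2a to 3.20 for Cxcl10, and the effector group holds filled points on both sides of 0.

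Several genes that define a strong type I interferon response in other cells were barely detected in either group. The 10 members below the count filter were Oas1a, Oas2, Oas3, Oasl2, Usp18, Ifit1, Ifit2, Ifit3, Mx1 and Ifi44, and the highest count of any of them in any library was 23. Ifit1, which binds viral RNA lacking cap methylation, gave 9, 4, 4 and 6 counts (control) against 14, 15, 14 and 10 counts (knockout), each knockout library above each control library in counts, although in CPM the highest control library (1.26 CPM) lay above the lowest knockout library (1.20 CPM). Usp18, the protease that removes ISG15 and dampens receptor signalling, gave 23, 5, 21 and 21 counts in the control and 10, 5, 2 and 3 in the knockout. Pooled rates in the knockout were 2.34 times that in the control for Ifit1 (exact 95% interval 1.41 to 4.00) and 0.290 times for Usp18 (0.167 to 0.482), intervals that cover counting error only. In a fit without the filter on low counts, the adjusted p was 0.514 for Ifit1 and 0.315 for Usp18 (edgeR). Mx1 gave at most 5 counts, Ifit2 at most 11 and Ifit3 at most 17, and Ifit3 has a near-identical copy, Ifit3b, which gave at most 4.

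**Figure D3:**
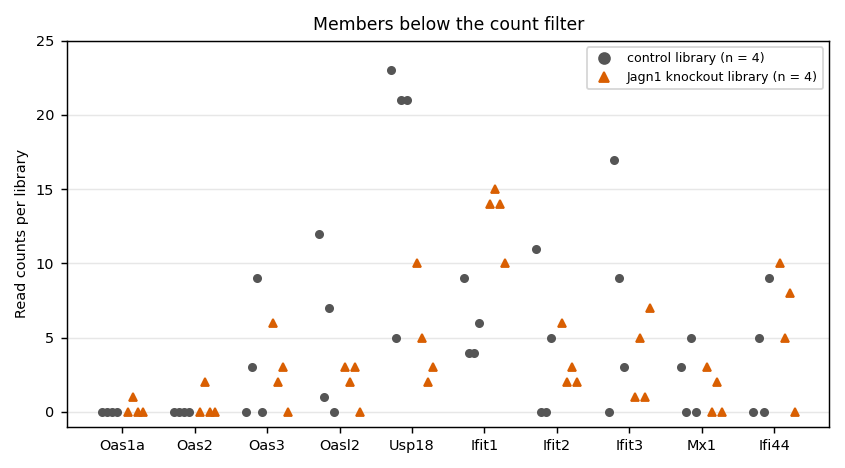
Raw read counts of the 10 members below the count filter, with 4 control circles and 4 knockout triangles per gene. The highest point is a Usp18 control library at 23 counts, and Oas1a and Oas2 lie at or near 0 throughout.

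By role, calls in both directions were found among the effectors and the other induced genes, and lower calls alone among sensors and regulators. Of all genes tested 2.54% were called higher and 3.19% lower. The 4 regulators had a median log2 fold change of -0.49 with 2 lower calls, the 4 sensors -0.68 with 1 lower call, and the 3 tested modifiers -0.44. The 7 tested effectors had a median of -0.37 with 2 higher and 2 lower calls, and the 6 tested other induced genes -0.40 with 1 higher and 1 lower call. The 2 regulator calls, Irf7 and Irf1, had overlapping groups and were lost under 6 and 9 of 17 alternatives. These medians and calls rest on few genes, and the roles were not tested against each other. Ifi27l2a and Rsad2 were set against each other because they moved in opposite directions, so their ratio describes that difference without scaling between libraries and adds no support to it. The count of Ifi27l2a divided by that of Rsad2 in the same library was 32.3, 15.4, 28.2 and 25.2 in control replicates 1 to 4 and 1.26, 0.701, 1.94 and 0.947 in knockout replicates 1 to 4. In the control Ifi27l2a was the more abundant transcript by at least 15.4 times, and in the knockout the counts were of like size. The kit reads 1 tag per transcript end, so these counts were compared without dividing by length.

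Control replicate 4 lay below the group mean for 18 of the 25 tested members, with a median deviation of -0.23 (log2 CPM), and it gave the lowest control level of Irf7, Irf9, Parp14, Ifi35, Ifi27l2a and Ly6e but the highest of Irf1, Xaf1 and Trim25. In the other 3 control libraries 14 to 19 members lay above the group mean, and in the 4 knockout libraries 11 to 15 did, with median deviations from -0.04 to 0.06. The summed level of the 35 members was 1681 to 2103 CPM in control libraries and 1301 to 1397 CPM in knockout libraries. Abundant members such as Ifi27l2a and Ly6e weigh most in this sum, so it does not describe a fall of every member. Of the 25 tested members, 7 had a fitted value above 0.

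The rest of the interferon pathway was followed through 7 lists of genes that are not members. Interferon genes themselves were not detected: of 21 listed, 19 had 0 counts in every library, and the 21 together gave 2 counts over all 8 libraries. Among 10 tested receptor, JAK and STAT genes no call was made (edgeR; 2 higher and 2 lower at an unadjusted p under 0.05, DESeq2 called 0 and limma-voom 1 higher and 1 lower). Tyk2, the kinase bound to the type I receptor, had a log2 fold change of 0.50 ± 0.16 and an edgeR adjusted p of 0.0915 and Ifngr1, the interferon gamma receptor gene, 0.50 ± 0.19 (edgeR adjusted p = 0.150). Among 10 tested feedback inhibitors 1 rose (10%, against 2.54% of all genes tested) and 1 fell (10%, against 3.19%). Cish, a STAT5-induced inhibitor of cytokine signalling, rose from 3.24 ± 0.843 to 8.17 ± 1.90 CPM, and the phosphatase gene Ptpn6 fell from 135 ± 55.5 to 66.7 ± 12.03 CPM (SD, n = 4 each). Those calls were lost under 8 and 6 of 17 alternatives.

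Of 20 tested genes that lead from nucleic acid or LPS sensing to interferon 2 fell (10.0%, against 3.19% of all genes tested). Irf8, a factor that acts with other IRFs in B cells and dendritic cells, fell from 174 ± 19.8 to 92.6 ± 13.2 CPM, and Tmem173, which encodes STING, the ER adaptor of DNA sensing, from 207 ± 32.5 to 133 ± 10.1 CPM (SD, n = 4 each). The groups overlapped for neither gene. The call of Irf8 was kept in all 17 alternatives and that of Tmem173 was lost under 5. Of 45 other interferon-stimulated genes tested 5 fell (11.1%, against the same 3.19%) and none rose (edgeR; 2 higher at an unadjusted p under 0.05, and DESeq2 and limma-voom called 1 each), their median log2 fold change was -0.29, and 34 of 45 fitted values lay below 0. These were Ms4a6b (-1.19 ± 0.25), Pml (-0.92 ± 0.19), Sp110 (-1.34 ± 0.28), Shisa5 (-0.55 ± 0.13) and Slfn2 (-0.78 ± 0.19). The call of Ms4a6b was kept in all 17 alternatives, that of Pml was lost without knockout replicate 2 (0.0517), that of Sp110 with no filter on low counts (0.10001), and those of Shisa5 and Slfn2 under 4 alternatives each. Pml is the organizer of nuclear bodies, and Slfn2 restrains division of immune cells. Sp110 belongs to a repeated gene cluster, so the assignment of its reads is uncertain, and its exons share 392 bases with G530012D18Rik on the opposite strand. Sp110 also varied from 463 to 1243 CPM within the control.

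Among 9 tested GBP and IRG GTPases, which attack vacuoles that hold pathogens, 1 fell (11.1%, against 3.19% of all genes tested). This was Igtp (-1.32 ± 0.31, from 13.2 ± 4.07 to 5.27 ± 1.3 CPM, SD, n = 4 each), a call lost under 4 of 17 alternatives. Exons of Igtp share 162 bases with Irgm2 on the same strand. Among 5 tested genes of the RNase L pathway no call was made (edgeR; 1 lower at an unadjusted p under 0.05, and DESeq2 and limma-voom called 1 lower each). The smallest p values there were those of Pde12, which degrades the OAS product (-0.51 ± 0.17, edgeR adjusted p = 0.0994), and Abce1, an inhibitor of RNase L (0.33 ± 0.16, edgeR adjusted p = 0.286). Over the 7 lists together, 1 of 96 tested genes rose (1.04%, against 2.54% of all genes tested) and 9 fell (9.38%, against 3.19%). The lists too were chosen with earlier results of these data known, so their shares are a description and no independent support.

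**Figure D4:**
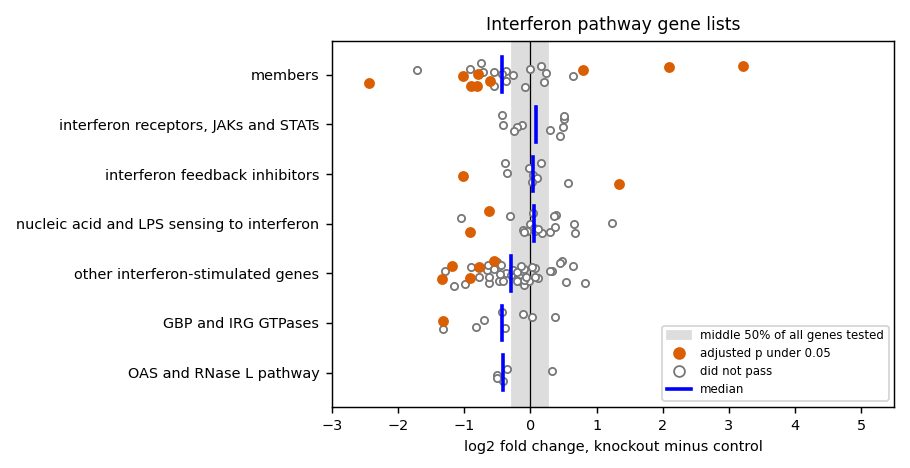
Fitted log2 fold change of every tested gene of the members and of 6 pathway lists, with filled points for an adjusted p under 0.05, a vertical bar for each median and a grey band for the middle of the distribution of all genes tested. Filled points lie to the left of 0 except 3 members and Cish.

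**Figure D5:**
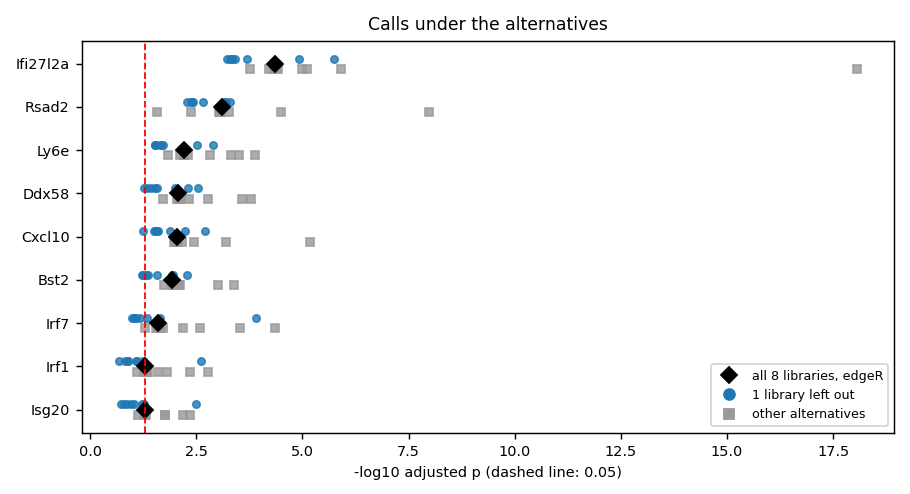
Adjusted p of the 9 called members on a -log10 axis, with a diamond for all 8 libraries, circles for fits with 1 library left out and squares for the other alternatives, and a dashed line at 0.05. Ifi27l2a, Rsad2 and Ly6e stay to the right of the line throughout, while Irf1 and Isg20 sit on it.

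The 9 calls differed in how firmly they stood, as the plot of adjusted p under the alternatives shows. Those of Ifi27l2a, Rsad2 and Ly6e were kept in all 17 alternatives, and those of Ddx58 and Cxcl10 were lost only without knockout replicate 2. The call of Bst2 was lost under 2 alternatives, that of Irf7 under 6, that of Irf1 under 9 and that of Isg20 under 10. The direction of each of the 9 was the same in every alternative.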

How the data were processed

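Per the labels' protocols, Trizol RNA from CD22-CD138+ cells (500 ng each) was made into 3′ tag libraries with the QuantSeq 3′ mRNA-Seq FWD kit, which reads 1 tag per transcript end. The deposited files hold raw, unnormalized read counts by gene symbol. The submitters' processing notes name the mouse build mm10 and the tools HTSeq 0.6.1, TopHat2 2.1.1, SAMtools 1.3.1 and BWA 0.7.12, with no role for each. The annotation, molecular identifiers and strand setting are each not given in the sources used here.

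Groups came from the sample titles (4 control, 4 knockout). Replicates were compared by chi-square, and every pair within a group differed beyond sampling noise (6.60 to 94.2 per degree of freedom). Genes were filtered with filterByExpr (minimum count 10, minimum total 15), leaving 9904, scaled with TMM and tested with edgeR 4.0.16 (R 4.3.3) by the robust quasi-likelihood F-test with group as the only term, two-sided, with Benjamini-Hochberg adjustment over all 9904 genes at 0.05. A standard error is the size of the fitted value over the root of its F. Log2 CPM used a prior count of 2. Named are all 35 members, Jagn1, and per pathway list up to 6 called genes or else the 2 with the smallest p. Other named genes were chosen after their values were seen. The members and lists were chosen with earlier results of these data known. On simulated counts (9723 genes, 200 of them changed) the test found 10.4% of the 1.5-fold, 52.2% of the 2-fold and 95.4% of the 4-fold changes, and 4 of its 108 calls were false. Only genes with a mean above 2 CPM were changed in the simulation, and they were fewer than the 568 genes called in the data. Alternatives were DESeq2 1.42.0, limma-voom (limma 3.58.1) with sample weights, other scalings and filters, no robust estimation, a replicate block, and leaving out libraries. Promoters and their motifs were read from the RefSeq table, and positions from GENCODE M21.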

Additional observations from a re-analysis of the deposited data

Results flagged for a closer look

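Within a group of 4 libraries, 2 of 50 tested combinations of member and group held a library far from the other 3 by Dixon's test at 95%, and chance flags about 1 in 20. For Stat2 this was control replicate 1 at 23.9 CPM, where the remaining control libraries spanned 16.2 to 17.2 CPM, and without that library its log2 fold change was 0.14 in place of -0.01. For Bst2 it was knockout replicate 1 at 25.0 CPM, where the remaining knockout libraries spanned 17.1 to 18.4 CPM, and all 4 still lay below every control library.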

How the results depend on the processing

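The edgeR fit called 3 members higher and 6 lower, 252 genes in all higher and 316 lower, and 1 gene of the other pathway lists higher and 9 lower. DESeq2 called 490 genes in all lower and 2 list genes higher. Limma-voom with sample weights called 480 genes higher and 590 lower, 11 members lower, and 4 list genes higher and 17 lower. Without control replicates 1 and 4 there were 438 genes called higher and 3 list genes higher. Leaving out 1 library at a time gave 1 to 3 members higher and 2 to 8 lower, a member median of -0.47 to -0.30, 137 to 411 genes higher and 133 to 481 lower, and 0 to 5 list genes higher and 3 to 15 lower. Why these counts moved was not tested. The lowest counts of all genes and of lower members came without knockout replicate 2.

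Same-numbered libraries did not deviate together (correlations -0.00342 to 0.0662), so the numbers were not taken as pairs. With the replicate block 2 members were higher and 4 lower, 0 list genes were higher, and the calls of Irf1, Irf7 and Isg20 were lost.

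Directions changed for 3 uncalled members, of which Stat2 and Xaf1 had fitted values near 0 and Ifi27 a value of 0.24. Stat2 was at 0.044 in limma-voom, 0.11 without control replicates 1 and 4, and -0.093 to 0.14 with 1 library left out. Ifi27 was at -0.071 without control replicates 1 and 4, and Xaf1 at -0.22 to 0.027 with 1 library left out. Other scalings and filters turned no member's direction. The 10 members below the filter gave too few counts for a test, and the simulation recovered 10.4% of 1.5-fold changes, so a member that did not pass may still have changed by that much. That share does not cover Rtp4, whose mean level lay below that of the genes changed in the simulation.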
